A study of Homo sapiens with 12 samples.

Results

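HOX genes encode homeodomain transcription factors that give positional identity along the body axis. Human HOX genes lie in the clusters HOXA, HOXB, HOXC and HOXD on separate chromosomes, and members with the same number (paralogues) descend from a common ancestral gene. In embryos, genes at the 3′ end of a cluster (low numbers) are switched on earlier and further towards the head than genes at the 5′ end (high numbers). Polycomb complexes hold silent stretches of a cluster closed, retinoic acid opens the 3′ end, and the proteins bind DNA together with PBX and MEIS cofactors. The genes described here are all rows of the merged count table whose symbol is HOX followed by A, B, C or D and a number. There were 39 such genes among 40605 rows, and 25 of them passed the filter on low counts.

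The libraries came from A549 cells, a human lung adenocarcinoma line, with a tetON system for doxycycline-inducible DYRK1B, a protein kinase. The 4 titled groups, each with 3 libraries, were wild-type DYRK1B (WT) with doxycycline, WT control, the Y273F mutant of DYRK1B with doxycycline, and Y273F control. Cells were kept for 7 days, with 2 µg/ml doxycycline in the induced wells. All groups carry a transgene, so doxycycline itself and induced DYRK1B cannot be told apart; the labels do not say whether a line is 1 clone. Reads were 3′ tags (QuantSeq FWD), whose number does not scale with transcript length, and levels are CPM, each gene's count scaled by the library's total over all genes. Library totals lay between 2815673 and 22319921 counts (median 7667958), and at these totals a floor of 3 counts lies at 0.134 to 1.07 CPM.

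The libraries carry numbers from 1 to 12 in the labels. WT doxycycline 1, 2 and 3 are libraries 4, 5 and 6, and WT control 1, 2 and 3 are libraries 1, 2 and 3. Y273F doxycycline 1, 2 and 3 are libraries 10, 11 and 12, and Y273F control 1, 2 and 3 are libraries 7, 8 and 9. Libraries 2, 6 and 10, whose titles are WT doxycycline 3 (6), WT control 2 (2) and Y273F doxycycline 1 (10), were set off from the rest along the first principal component of the 500 most variable genes, which held 66.3% of their variance. Their positions were 46.9, 42.7 and 45.2, against at most -4.74 in the other 9. DYRK1B itself had 26.8, 4.05 and 7.71 CPM in the libraries labelled WT doxycycline and 5.76, 3.09 and 5.41 CPM in those labelled WT control. It had 4.62, 4.85 and 19.8 CPM in the libraries labelled Y273F doxycycline and 2.63, 12.5 and 3.23 CPM in those labelled Y273F control. The levels were thus highest in libraries 4, 8 and 12, of which library 8 is labelled a control, and DYRK1B did not follow the titles in every library. A transgene without the natural 3′ end of DYRK1B would add no tags to this gene, and the labels do not describe the construct's 3′ end. For this reason HOX levels are given both by titled group and by the sets of library numbers 2, 6, 10; 4, 8, 12; 3, 7, 11; and 1, 5, 9. These sets are not groups of the labels, each mixes 3 of the titled groups, and no condition is assigned to them and no test was run between them.

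Of the markers that define lung epithelium, SFTPB had no count, and SFTPC and NKX2-1 stayed at or below 0.649 and 0.224 CPM. The summed level of the 8 lung and epithelial markers, of which keratins 7, 8 and 18 make up most, was 10130 to 13390 CPM in libraries 2, 6 and 10, against 3508 to 5566 CPM in the other 9. CDH1 (E-cadherin) went the other way, with 24.1 to 30.1 CPM in libraries 2, 6 and 10, against 43.8 to 64.2 CPM in the others. EPCAM overlapped, with 4.62 to 6.62 CPM in libraries 2, 6 and 10 and 4.49 to 32.3 CPM in the others.

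Promoter windows are shown for HOXD11, HOXD10 and HOXA7, which are among the HOX genes that set libraries 2, 6 and 10 apart. HOXA10 also set these libraries apart, and the windows found for it are not printed. A window is further shown for HOXD8, in the HOXD cluster, whose level overlapped between those libraries and the rest. Each runs from 250 bases before to 50 bases after a RefSeq start (GRCh38.p14), printed 5′ to 3′ on the gene's strand with every CG dinucleotide in capitals. The HOXD windows lie at chr2:176107030-176107329, chr2:176116528-176116827 and chr2:176129455-176129754 on the plus strand, and the HOXA7 window at chr7:27156626-27156925 on the minus strand.
HOXD11: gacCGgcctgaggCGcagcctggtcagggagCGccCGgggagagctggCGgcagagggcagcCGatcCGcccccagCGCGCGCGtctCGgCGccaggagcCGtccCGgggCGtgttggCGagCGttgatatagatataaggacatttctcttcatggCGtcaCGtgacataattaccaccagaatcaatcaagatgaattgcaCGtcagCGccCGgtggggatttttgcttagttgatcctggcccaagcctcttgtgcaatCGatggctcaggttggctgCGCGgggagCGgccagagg
HOXD10: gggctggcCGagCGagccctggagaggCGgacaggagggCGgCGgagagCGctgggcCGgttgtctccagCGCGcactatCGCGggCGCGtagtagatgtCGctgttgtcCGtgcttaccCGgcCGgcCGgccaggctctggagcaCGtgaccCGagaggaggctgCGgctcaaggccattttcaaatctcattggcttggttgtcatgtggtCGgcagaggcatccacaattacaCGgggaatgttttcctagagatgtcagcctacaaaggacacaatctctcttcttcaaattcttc
HOXD8: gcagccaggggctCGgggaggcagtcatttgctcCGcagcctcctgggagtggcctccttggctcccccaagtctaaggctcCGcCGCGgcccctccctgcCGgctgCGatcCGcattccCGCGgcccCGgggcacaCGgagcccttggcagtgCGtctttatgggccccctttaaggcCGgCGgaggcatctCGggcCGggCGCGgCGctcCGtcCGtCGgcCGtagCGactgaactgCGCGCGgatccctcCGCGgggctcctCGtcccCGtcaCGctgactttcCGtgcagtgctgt
HOXA7: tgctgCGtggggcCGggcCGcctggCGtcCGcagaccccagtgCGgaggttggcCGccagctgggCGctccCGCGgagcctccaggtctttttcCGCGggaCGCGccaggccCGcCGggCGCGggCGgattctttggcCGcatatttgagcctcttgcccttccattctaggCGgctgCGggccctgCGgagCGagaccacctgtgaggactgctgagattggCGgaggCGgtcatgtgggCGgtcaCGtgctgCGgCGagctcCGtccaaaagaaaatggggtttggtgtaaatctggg
The 4 windows held 27 (HOXD11), 23 (HOXD10), 34 (HOXD8) and 31 (HOXA7) CG dinucleotides. The median over all 35116 promoter windows of the same length was 14, with quartiles at 4 and 28, and the median of the 27 windows found for 20 of the 39 HOX genes was 22. On both strands, TATAAA was absent from these 4 windows and present in 11.5% of all windows. Each of the HOXA10 windows, which are not printed, held 1 TATAAA match. TGATNNAT, a form of the PBX-HOX composite motif, occurred once in the HOXD11 window and in 7.4% of all windows. No HOX window held both motifs. These matches describe letters in the windows and not binding.

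All 4 clusters were expressed, and HOXD was the lowest. HOX genes together took 330.7 ± 29.9 CPM (SD, n = 12 libraries) from a total of 31342 counts. HOXA (chr7, 11 genes) had 110.2 ± 13.4 CPM, HOXC (chr12, 9 genes) 106.2 ± 19.3 CPM and HOXB (chr17, 10 genes) 95.7 ± 11.5 CPM, whereas HOXD (chr2, 9 genes) had 18.6 ± 6.20 CPM (SD, n = 12 each). As shares of HOX counts these were 33.3 ± 2.58% for HOXA, 31.9 ± 3.14% for HOXC, 29.2 ± 4.75% for HOXB and 5.53 ± 1.34% for HOXD. The ranges of HOXA (90.5 to 136.3 CPM), HOXC (86.1 to 138.7 CPM) and HOXB (81.3 to 116.5 CPM) overlapped, and HOXD was below each of them in every library. A mean of at least 1 CPM was reached by 8 genes of HOXA, 8 of HOXB, 6 of HOXC and 3 of HOXD.

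**Figure D1:**
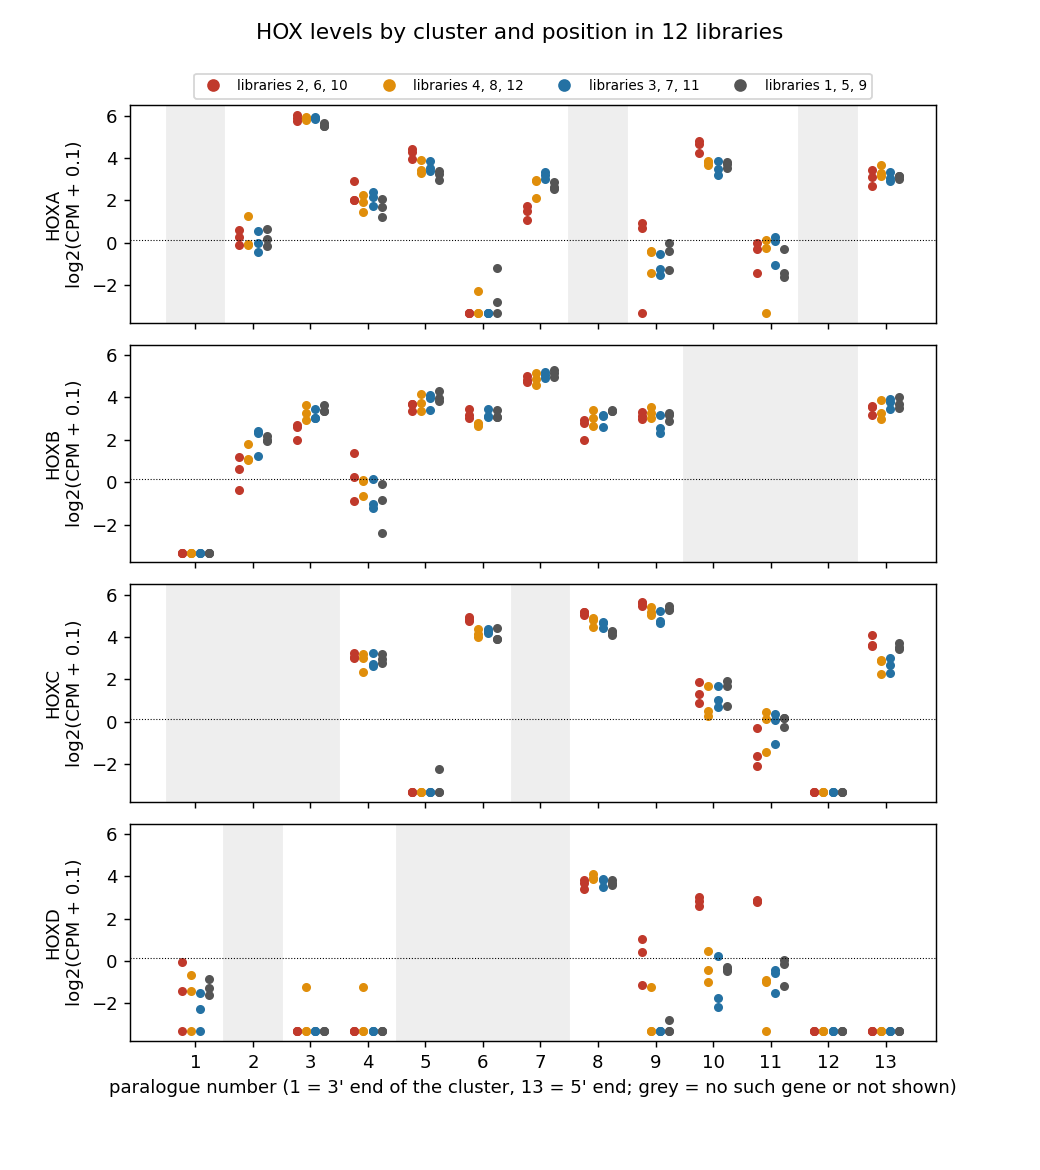
Level of HOX genes by cluster and paralogue number in 12 libraries, as log2(CPM + 0.1); points are libraries, coloured by library set, the dotted line is 1 CPM, and grey marks positions with no such gene or not shown. HOXA3, HOXC9 and HOXB7 lie highest, and HOXD10 and HOXD11 lie above the line in libraries 2, 6 and 10 (red) and mostly below it elsewhere.

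Position along a cluster did not order the levels. Summed over clusters, paralogue group 3 had the highest mean level with 64.9 CPM, followed by group 9 with 48.4, group 8 with 47.7, group 7 with 38.0 and group 13, the 5′ end, with 30.6 CPM. Group 12 had no count at all, and groups 2 and 11 stayed at 4.14 and 3.49 CPM. The 3 genes with the highest means, HOXA3, HOXC9 and HOXB7, made up 38.4% of the HOX level. The genes with mean levels just inside and just outside 1 CPM were HOXA2 with 1.12 CPM and HOXB4 with 0.799 CPM, and HOXC11 followed with 0.744 CPM.

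Each cluster also held genes below 1 CPM. HOXB1, HOXC12, HOXD12 and HOXD13 had no count in any library, which over 97525578 counts allows a level of up to 0.0308 CPM, by counting error only. The other 10 (HOXA6, HOXA9, HOXA11, HOXB4, HOXC5, HOXC11, HOXD1, HOXD3, HOXD4 and HOXD9) had means of 0.00941 to 0.799 CPM. Of these, HOXA6, HOXA9, HOXB4, HOXC5, HOXD1, HOXD3 and HOXD4 have exons that overlap other annotated genes on the same strand. Reads in the shared parts may count for neither gene, so their levels may be too low, and the size of such a loss was not tested. HOXA11, HOXC11 and HOXD9 have no such overlap. At least 3 counts in at least 1 library were found for 32 of the 39 genes, and in every library for 23.

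The HOXA genes at the 3′ end were led by HOXA3, which patterns the neck, thymus and parathyroid. HOXA3 had 58.5, 45.6 and 64.97 CPM in WT doxycycline and 49.7, 58.95 and 60.8 CPM in WT control libraries. Levels of HOXA3 were 54.3, 59.96 and 56.4 CPM in Y273F doxycycline and 56.6, 61.7 and 44.9 CPM in Y273F control libraries. The titled groups overlapped. HOXA2, a gene of the hindbrain and branchial arches, was at the limit of description. HOXA2 had 0.817, 1.45 and 0.826 CPM in WT doxycycline and 1.02, 1.104 and 0.649 CPM in WT control libraries. Y273F doxycycline libraries held 1.42, 1.36 and 0.859 CPM of HOXA2, and Y273F controls 0.876, 2.299 and 0.806 CPM. HOXA4 was also low. HOXA4 had 4.63, 4.05 and 3.99 CPM in WT doxycycline and 2.26, 3.97 and 4.33 CPM in WT control libraries. In the Y273F line HOXA4 had 7.46, 5.24 and 3.76 CPM with doxycycline and 3.25, 2.63 and 3.14 CPM in controls. HOXA13, the 5′-most gene, which is needed for digits and the urogenital tract, was expressed in every library. HOXA13 had 9.67, 8.71 and 10.6 CPM in WT doxycycline and 8.92, 8.39 and 7.46 CPM in WT control libraries. Levels of HOXA13 were 6.39, 9.897 and 12.4 CPM in Y273F doxycycline and 8.26, 8.87 and 7.84 CPM in Y273F control libraries.

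HOXB was expressed without a gap from HOXB5 to HOXB9, and again at its 5′-most gene HOXB13, a factor of the prostate. HOXB7 led the cluster. HOXB7 had 23.7, 39.01 and 26.7 CPM in WT doxycycline and 35.9, 27.8 and 30.3 CPM in WT control libraries. Y273F doxycycline libraries held 32.7, 33.6 and 29.3 CPM of HOXB7, and Y273F controls 36.3, 36.1 and 30.96 CPM. HOXB5, which acts in lung branching in the mouse, was the next. HOXB5 had 13.2, 15.7 and 12.8 CPM in WT doxycycline and 19.8, 13.03 and 15.5 CPM in WT control libraries. In the Y273F line HOXB5 had 10.3, 17.1 and 10.1 CPM with doxycycline and 10.5, 18.1 and 14.02 CPM in controls. HOXB13 lies some distance from the rest of its cluster. HOXB13 had 14.7, 12.97 and 11.97 CPM in WT doxycycline and 16.03, 9.05 and 15.03 CPM in WT control libraries. Levels of HOXB13 were 11.7, 13.6 and 9.66 CPM in Y273F doxycycline and 11.01, 7.88 and 11.1 CPM in Y273F control libraries. HOXB6, HOXB8 and HOXB9 lay close together in level. HOXB6 had 6.67, 8.299 and 7.98 CPM in WT doxycycline and 8.47, 10.8 and 10.8 CPM in WT control libraries. Y273F doxycycline libraries held 8.88, 8.54 and 6.23 CPM of HOXB6, and Y273F controls 8.38, 6.896 and 10.4 CPM. HOXB8 had 6.26, 10.1 and 6.88 CPM in WT doxycycline and 10.1, 7.51 and 5.95 CPM in WT control libraries. In the Y273F line HOXB8 had 3.91, 8.54 and 8.16 CPM with doxycycline and 9.01, 10.5 and 10.4 CPM in controls. HOXB9 had 9.67, 8.92 and 7.84 CPM in WT doxycycline and 9.48, 8.61 and 4.87 CPM in WT control libraries. Levels of HOXB9 were 9.94, 5.82 and 8.05 CPM in Y273F doxycycline and 8.88, 11.5 and 7.303 CPM in Y273F control libraries. Libraries of the compared titled groups overlapped for HOXB5, HOXB7, HOXB9 and HOXB13. HOXB2, a hindbrain gene, was the lowest member of the cluster to reach the described level. HOXB2 had 3.404, 4.46 and 2.202 CPM in WT doxycycline and 3.84, 0.662 and 2.27 CPM in WT control libraries. Y273F doxycycline libraries held 1.42, 5.24 and 2.04 CPM of HOXB2, and Y273F controls 4.88, 1.97 and 3.76 CPM.

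HOXC and HOXD each had genes that overlapped between libraries 2, 6 and 10 and the rest. HOXC4, whose exons overlap those of HOXC5 and HOXC6 on the same strand, was one of them. HOXC4 had 8.03, 6.74 and 7.84 CPM in WT doxycycline and 7.56, 9.27 and 9.41 CPM in WT control libraries. In the Y273F line HOXC4 had 8.17, 6.598 and 9.12 CPM with doxycycline and 6.01, 4.92 and 9.14 CPM in controls. HOXC10 was low in all groups. HOXC10 had 1.09, 3.73 and 2.34 CPM in WT doxycycline and 1.58, 1.77 and 1.95 CPM in WT control libraries. Levels of HOXC10 were 3.55, 3.105 and 3.11 CPM in Y273F doxycycline and 1.502, 1.31 and 3.09 CPM in Y273F control libraries. HOXD8 held most of the HOXD level outside libraries 2, 6 and 10. HOXD8 had 14.98, 12.7 and 10.6 CPM in WT doxycycline and 14.1, 14.1 and 14.2 CPM in WT control libraries. Y273F doxycycline libraries held 12.8, 14.4 and 14.4 CPM of HOXD8, and Y273F controls 11.1, 17.1 and 12.1 CPM.

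Libraries 2, 6 and 10 stood apart from the other 9 in their HOX levels too. Summed over all HOX genes, the level was 378.0, 381.5 and 367.6 CPM in libraries 2, 6 and 10, against 300.2 to 346.1 CPM in the other 9. The share of HOXC in HOX counts was 36.1% to 36.7% in libraries 2, 6 and 10, against 27.6% to 33.0% in the others, and the share of HOXD was 6.64% to 8.29% against 3.71% to 5.50%. The HOXD extremes, 8.29% in library 2 and 3.71% in library 7, have Wilson 95% intervals of 7.08% to 9.696% and 3.04% to 4.51%. The share of HOXB went the other way, with 21.3% to 23.9% in libraries 2, 6 and 10, against 27.1% to 36.4% in the others. HOXA shares overlapped, at 32.4% to 35.7% in libraries 2, 6 and 10 and 28.9% to 36.1% in the others. Shares depend on each other, since a rise in the share of a cluster lowers those of the rest. In CPM, HOXB overlapped, with 81.3 to 87.7 CPM in libraries 2, 6 and 10 and 83.5 to 116.5 CPM in the others. HOXA lay above in CPM, as did HOXC and HOXD, with 119.0 to 136.3 against 90.5 to 117.6 CPM for HOXA. In bulk samples, fewer cells of a type and less RNA per cell cannot be told apart.

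**Figure D2:**
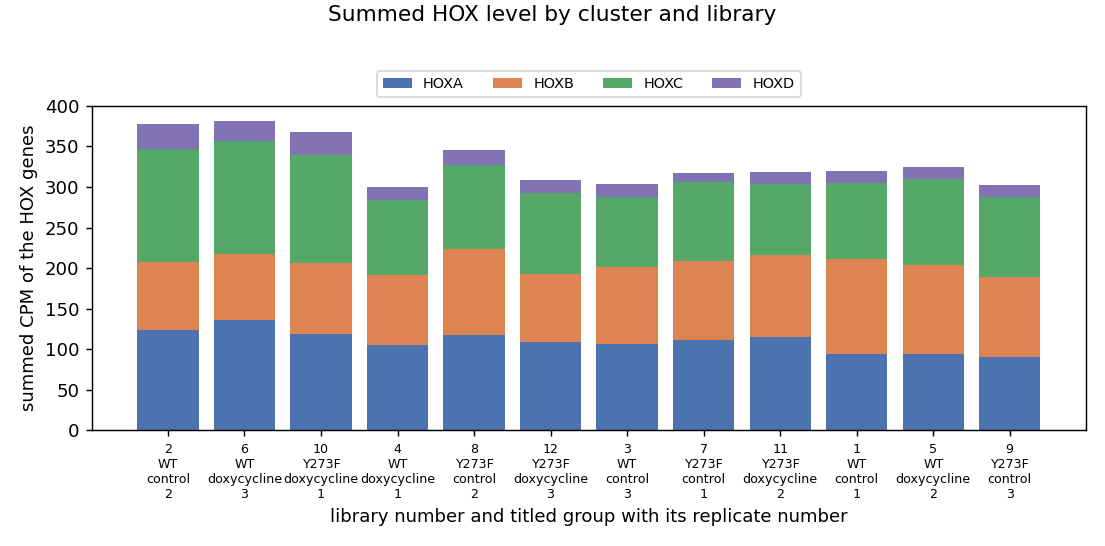
Summed CPM of the HOX genes in each library, stacked by cluster, with libraries ordered by set; labels give the library number, titled group and replicate. Libraries 2, 6 and 10 sum to 367.6 to 381.5 CPM and the other 9 to 300.2 to 346.1 CPM.

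All 3 of these libraries lay above the other 9 for 7 of the 25 HOX genes tested (28.0%) and below them for 2 (8.0%), while 18.6% and 15.3% of all 13838 genes did so. The 7 were HOXA5, HOXA10, HOXC6, HOXC8, HOXC9, HOXD10 and HOXD11, and the 2 were HOXA7 and HOXB3; the other 16 overlapped. The filter on low counts fixed the place of HOXD10 and HOXD11 among the 7, since neither would have been tested without libraries 2, 6 and 10. The same 9 genes were found with TMM scaling, an alternative chosen after seeing the data. Since the sets were proposed with results of these data known, these counts describe the libraries.

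Towards the 5′ end of HOXD, HOXD10 and HOXD11, genes that pattern the limb, were near the counting floor outside libraries 2, 6 and 10. HOXD10 had 7.07, 6.06 and 8.17 CPM in libraries 2, 6 and 10 and 0.408, 1.31 and 0.644 CPM in libraries 4, 8 and 12. HOXD10 further had 1.08, 0.125 and 0.194 CPM in libraries 3, 7 and 11 and 0.677, 0.726 and 0.627 CPM in libraries 1, 5 and 9. The lowest of libraries 2, 6 and 10 was 4.61 times the highest of the others, and the ratio of the medians was 11.0. HOXD11 had 7.29, 7.16 and 6.75 CPM in libraries 2, 6 and 10 and 0.408, 0 and 0.429 CPM in libraries 4, 8 and 12. HOXD11 further had 0.649, 0.2503 and 0.582 CPM in libraries 3, 7 and 11 and 0.339, 0.934 and 0.806 CPM in libraries 1, 5 and 9. For HOXD11 the lowest of libraries 2, 6 and 10 was 7.23 times the highest of the others, and the ratio of the medians was 16.7. HOXD10 and HOXD11 passed the filter on low counts only through libraries 2, 6 and 10, so both had to be high there to be tested. HOXD9, next to HOXD10, did not pass the filter; it had 9, 9 and 1 counts in libraries 2, 6 and 10, against 0 to 3 counts in the others. HOXD8 overlapped, with 10.6 to 14.1 CPM in libraries 2, 6 and 10 and 11.1 to 17.1 CPM in all the others together. It did not overlap with libraries 4, 8 and 12 alone, which had 14.4 to 17.1 CPM. HOXD12 and HOXD13, on the far side of HOXD11, had no count. EVX2, the nearest protein-coding gene beyond HOXD13, had 0 CPM in every library. The nearest tested genes on either side of the cluster overlapped. LNPK had 29.8 to 35.4 CPM in libraries 2, 6 and 10 and 23.1 to 31.1 CPM in the others, and MTX2 had 28.4 to 40.2 and 32.7 to 40.9 CPM. Further away, ATP5MC3 and NFE2L2 overlapped, while HNRNPA3 lay lower, with 137.4 to 158.1 CPM in libraries 2, 6 and 10, against 196.9 to 231.5 CPM in the others. Exons of HOXD10 and HOXD11 overlap on the same strand in GENCODE 29, so reads in the shared part may count for neither gene.

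**Figure D3:**
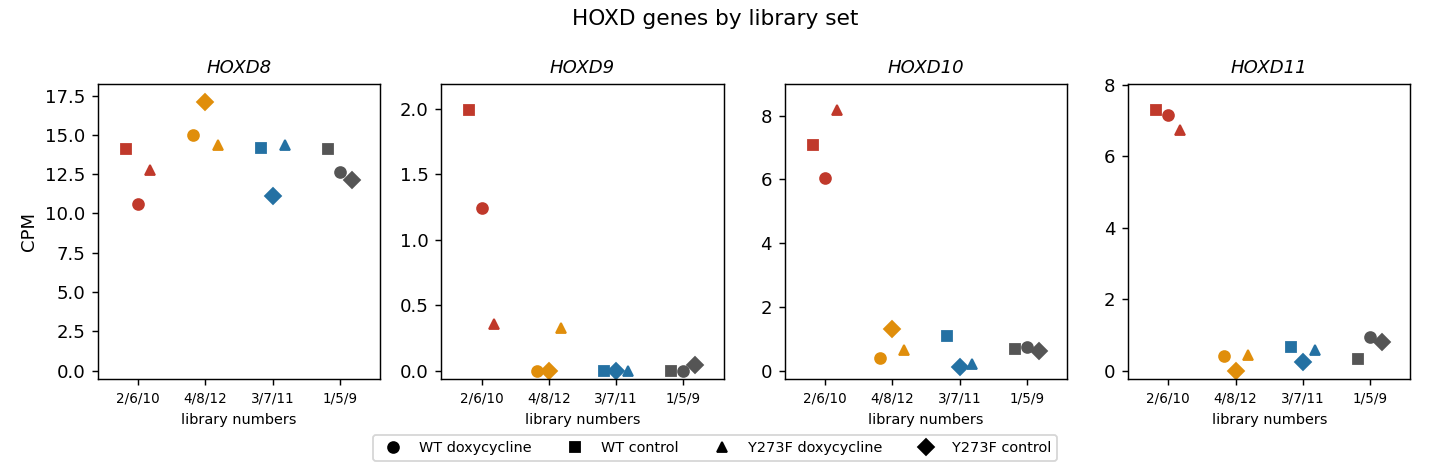
CPM of HOXD8, HOXD9, HOXD10 and HOXD11 in each library, by library set (colour) and titled group (shape). HOXD10 and HOXD11 lie at 6.06 to 8.17 CPM in libraries 2, 6 and 10 and at or below 1.31 CPM in the others, while HOXD8 overlaps.

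In HOXA, the differences ran in both directions. HOXA5, needed for lung development in the mouse, was high in libraries 2, 6 and 10. HOXA5 had 21.4, 19.3 and 15.6 CPM in libraries 2, 6 and 10 and 9.67, 14.8 and 10.6 CPM in libraries 4, 8 and 12. HOXA5 further had 10.4, 14.5 and 11.4 CPM in libraries 3, 7 and 11 and 7.79, 9.54 and 10.5 CPM in libraries 1, 5 and 9. The ratio of the medians was 1.84. HOXA10, needed for the function of the uterus, was also high there. HOXA10 had 18.6, 27.8 and 24.9 CPM in libraries 2, 6 and 10 and 13.9, 14.4 and 12.4 CPM in libraries 4, 8 and 12. HOXA10 further had 9.19, 14.6 and 11.1 CPM in libraries 3, 7 and 11 and 11.6, 13.3 and 13.8 CPM in libraries 1, 5 and 9. The ratio of the medians was 1.87. HOXA7 lay lower in libraries 2, 6 and 10 than in every other library. HOXA7 had 1.99, 2.75 and 3.196 CPM in libraries 2, 6 and 10 and 4.22, 7.55 and 7.73 CPM in libraries 4, 8 and 12. HOXA7 further had 8.002, 9.01 and 9.897 CPM in libraries 3, 7 and 11 and 7.22, 6.12 and 5.74 CPM in libraries 1, 5 and 9. The ratio of the medians was 0.365. HOXA10 shares exons with a readthrough transcript that also covers HOXA9. Of the tested neighbours of HOXA, SKAP2, SNX10 and TAX1BP1 also lay higher, while CBX3 and HIBADH overlapped. SKAP2 and TAX1BP1 had 144.2 to 149.7 and 420.4 to 428.7 CPM in libraries 2, 6 and 10, against 89.1 to 128.5 and 295.3 to 334.3 CPM in the others.

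In HOXB, only HOXB3, which patterns the hindbrain and neck, stood apart, and it was low. HOXB3 had 5.96, 3.85 and 6.39 CPM in libraries 2, 6 and 10 and 7.49, 12.5 and 9.45 CPM in libraries 4, 8 and 12. HOXB3 further had 11.03, 8.13 and 7.96 CPM in libraries 3, 7 and 11 and 12.5, 10.2 and 10.1 CPM in libraries 1, 5 and 9. The ratio of the medians was 0.589. HOXB2, its 3′ neighbour, had 0.662, 2.20 and 1.42 CPM in libraries 2, 6 and 10, against 1.97 to 5.24 CPM in the others, and overlapped. HOXB-AS1, a noncoding RNA on the opposite strand whose exons overlap both genes, had 1.99 to 5.33 CPM in libraries 2, 6 and 10, against 8.03 to 9.98 CPM in the others. HOXB3 shares exons on its own strand with HOXB4 and HOXB6, so reads in the shared parts may count for none of them.

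In HOXC, the middle genes were high. HOXC6 had a ratio of the medians of 1.55. HOXC6 had 28.5, 30.6 and 26.99 CPM in libraries 2, 6 and 10 and 17.4, 20.4 and 16.1 CPM in libraries 4, 8 and 12. HOXC6 further had 18.4, 19.1 and 20.8 CPM in libraries 3, 7 and 11 and 14.7, 21.3 and 15.01 CPM in libraries 1, 5 and 9. HOXC8, which shapes the thoracic skeleton in the mouse, had a ratio of 1.63. HOXC8 had 35.99, 36.6 and 32.3 CPM in libraries 2, 6 and 10 and 22.1, 27.9 and 30.1 CPM in libraries 4, 8 and 12. HOXC8 further had 24.98, 26.03 and 21.4 CPM in libraries 3, 7 and 11 and 16.7, 18.9 and 19.6 CPM in libraries 1, 5 and 9. HOXC9 had a ratio of 1.32, and its lowest of libraries 2, 6 and 10 was 1.01 times the highest of the others. HOXC9 had 50.6, 49.1 and 44.04 CPM in libraries 2, 6 and 10 and 36.2, 43.02 and 32.4 CPM in libraries 4, 8 and 12. HOXC9 further had 25.3, 37.2 and 27.2 CPM in libraries 3, 7 and 11 and 38.8, 43.7 and 40.3 CPM in libraries 1, 5 and 9. Exons of HOXC6 and HOXC9 overlap on the same strand. Of the tested neighbours of HOXC, ATP5MC2, CBX5 and HNRNPA1 lay lower, while CALCOCO1 and SMUG1 overlapped. CBX5 and HNRNPA1 had 143.3 to 163.0 and 290.2 to 331.6 CPM in libraries 2, 6 and 10, against 180.0 to 218.7 and 515.0 to 611.2 CPM in the others.

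Among the other 9 libraries the sets differed less. HOXC13, a regulator of hair and nail keratins, lay lower in all 6 libraries of 3, 7, 11 and 4, 8, 12 than in all 6 of 1, 5, 9 and 2, 6, 10. HOXC13 had 12.4, 11.97 and 17.1 CPM in libraries 2, 6 and 10 and 7.49, 4.597 and 7.19 CPM in libraries 4, 8 and 12. HOXC13 further had 4.87, 6.38 and 7.96 CPM in libraries 3, 7 and 11 and 12.9, 10.7 and 11.4 CPM in libraries 1, 5 and 9. HOXC13 was the 1 gene of 25 (4.0%) below without overlap in that split, against 1.92% of all genes, and none lay above (0.0% against 1.14%). Libraries 4, 8 and 12, which had the highest DYRK1B, lay above libraries 3, 7 and 11 for 1 HOX gene, HOXD8 (4.0%, against 7.81% of all genes), and below them for HOXA7 and HOXB6 (8.0%, against 9.3%). With TMM scaling the HOXD8 sets overlapped. Libraries 3, 7 and 11 lay above libraries 1, 5 and 9 for HOXA3, HOXA7 and HOXC8 (12.0%, against 8.46%) and below them for HOXB8, HOXC9 and HOXC13 (12.0%, against 10.9%). Libraries 2, 6 and 10 lay above libraries 4, 8 and 12 for 10 HOX genes (40.0%, against 25.5%) and below for 3 (12.0%, against 21.1%). They lay above libraries 1, 5 and 9 for 8 (32.0%, against 26.4%) and below for 5 (20.0%, against 28.1%). Both the 10 and the 8 include HOXD10 and HOXD11, which were tested only because they are high in libraries 2, 6 and 10.

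**Figure D4:**
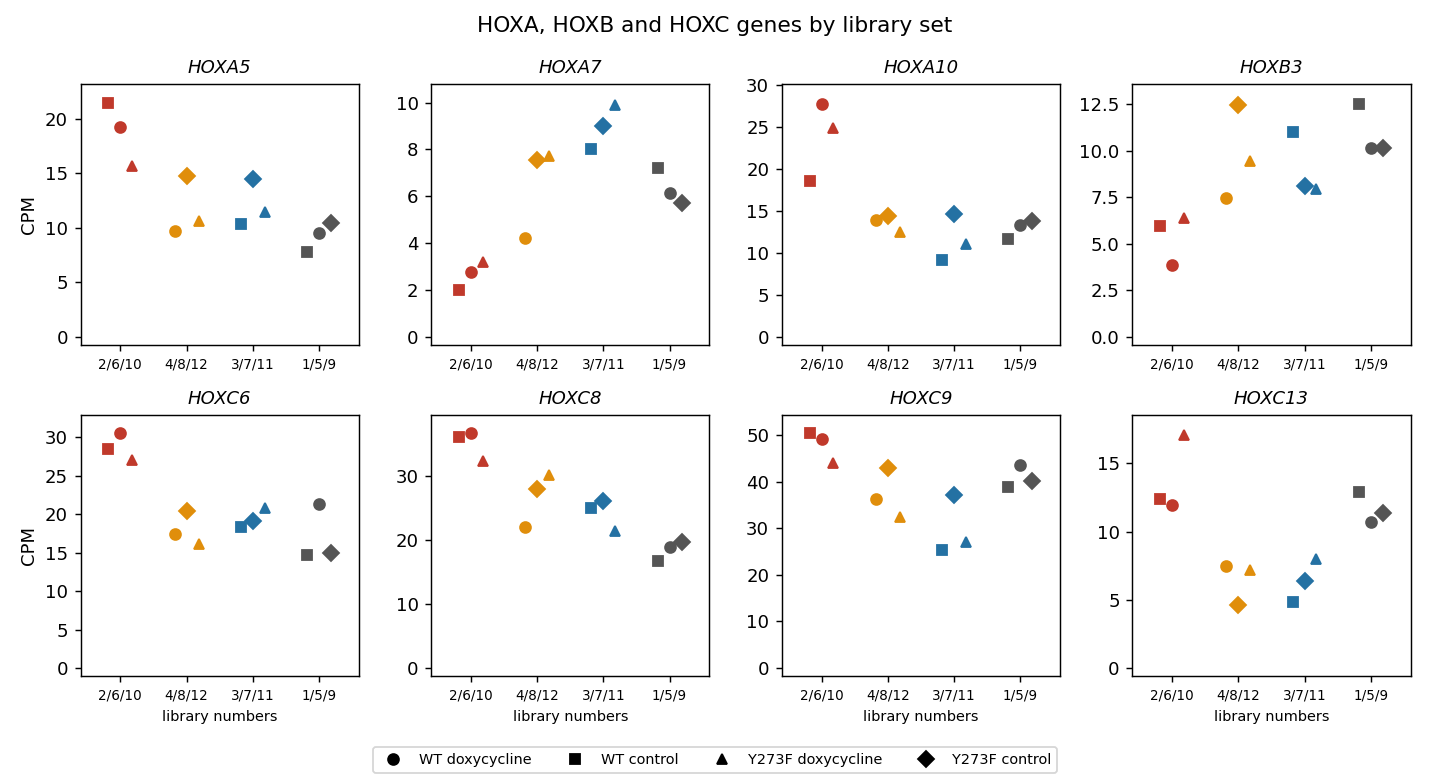
CPM of HOXA, HOXB and HOXC genes in each library, by library set (colour) and titled group (shape). HOXA7 and HOXB3 lie lowest in libraries 2, 6 and 10, HOXC13 lies at 4.60 to 7.96 CPM in libraries 4, 8, 12, 3, 7 and 11 and at 10.7 to 17.1 CPM in the rest, and the others lie highest in libraries 2, 6 and 10.

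Of the markers of other cell types, only COL1A1 and ACTA2 lay higher in libraries 2, 6 and 10 without overlap. The 8 fibroblast and smooth muscle markers summed to 171.2 to 230.5 CPM in libraries 2, 6 and 10, against 29.5 to 52.4 CPM in the other 9. The sum was carried by COL1A1, with 134.2 to 193.4 against 12.9 to 29.2 CPM, and ACTA2, with 34.8 to 36.2 against 11.5 to 22.3 CPM; DES had no count and COL1A2 was at or below 0.355 CPM in every library. The 4 endothelial markers summed to at most 0.275 CPM in libraries 2, 6 and 10 and 0.582 CPM in the others, with VWF and KDR at 0. The 4 blood markers summed to 2.13 to 3.09 CPM in libraries 2, 6 and 10 and 1.23 to 3.86 CPM in the others, with CD3E at 0. The part of the epithelial and fibroblast markers in the HOX differences was not tested.

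Between the titled groups, no HOX gene passed. With edgeR's quasi-likelihood test and Benjamini-Hochberg adjustment over 13838 genes, 0 of 25 HOX genes and 0.0% of all genes passed at an adjusted p under 0.05 in each of the 4 comparisons. DESeq2 and limma-voom also called 0 genes in each. DYRK1B, the gene to be induced, did not pass either. With doxycycline its log2 fold change was 1.44 (SE 0.82, edgeR adjusted p = 0.9997) in the WT line. In the Y273F line it was 0.87 (SE 0.84, edgeR adjusted p = 0.992). Libraries 2, 6 and 10 fall in different titled groups and widen the spread within them, so a lack of calls does not show a lack of change. The comparisons share control libraries and are given side by side. At an unadjusted p under 0.05, doxycycline in the WT line gave 0 HOX genes (0.968% of all genes) and doxycycline in the Y273F line gave 1 (1.63%). The background was 1.19% of all genes for the difference of these effects and 3.32% for Y273F control over WT control.

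For doxycycline over control in the WT line, the median log2 fold change of the 25 HOX genes was 0.0052, against -0.0017 over all genes, with 13 above and 12 below 0. The smallest unadjusted p was 0.119 for HOXB6, with a log2 fold change of -0.38 (SE 0.23, edgeR adjusted p = 0.9997). HOXB6 was also the 1 gene (4.0%, against 1.77% of all genes) whose WT doxycycline libraries lay below all WT controls, at 6.67 to 8.30 against 8.47 to 10.8 CPM; no HOX gene lay above (0.0%, against 1.5%). The most abundant genes gave log2 fold changes of 0.01 (SE 0.17) for HOXA3, -0.07 (SE 0.18) for HOXB7 and 0.18 (SE 0.24) for HOXC9, with 95% intervals of -0.36 to 0.37, -0.46 to 0.31 and -0.34 to 0.70. HOXA7 had -0.42 (SE 0.51).

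For doxycycline over control in the Y273F line, the HOX median was 0.07, against 0.0052 over all genes, with 14 above and 11 below 0. HOXA4 had the smallest unadjusted p, 0.0379, with a log2 fold change of 0.82 (SE 0.35, edgeR adjusted p = 0.992); its Y273F doxycycline libraries had 3.76 to 7.46 CPM and its Y273F controls 2.63 to 3.25 CPM. HOXA4 and HOXC10 lay above without overlap, as did 5.03% of all genes, and HOXB8 lay below (4.0%, against 5.98%). Log2 fold changes were 0.07 (SE 0.17) for HOXA3, -0.11 (SE 0.18) for HOXB7, -0.22 (SE 0.24) for HOXC9 and -0.05 (SE 0.51) for HOXA7.

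The WT effect of doxycycline minus the Y273F effect had a HOX median of -0.13, against -0.01 over all genes, with 8 genes above and 17 below 0. For Y273F control over WT control the HOX median was -0.08, against -0.02 over all genes, with 10 above and 15 below 0. Without overlap, 7.1% of all genes lay above and 4.18% below; no HOX gene lay above (0.0%).

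HOXD10 and HOXD11 had the widest intervals, since libraries 2, 6 and 10 fall in 3 titled groups and none in the Y273F controls. HOXD10 averaged 2.40 ± 3.17 CPM in WT doxycycline and 2.94 ± 3.58 CPM in WT control libraries (SD, n = 3 each), and 3.00 ± 4.48 CPM in Y273F doxycycline and 0.689 ± 0.597 CPM in Y273F control libraries (SD, n = 3 each). Its log2 fold change with doxycycline was -0.23 (SE 1.31) in the WT line and 2.13 (SE 1.53) in the Y273F line, and -0.36 in the Y273F line without library 10. HOXD11 gave 0.12 (SE 1.34) in the WT line and 2.21 (SE 1.56) in the Y273F line, and 0.06 in the Y273F line without library 10. For Y273F control over WT control the values were -2.22 (SE 1.49) for HOXD10 and -2.42 (SE 1.51) for HOXD11, and -0.59 and -0.08 without library 2.

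**Figure D5:**
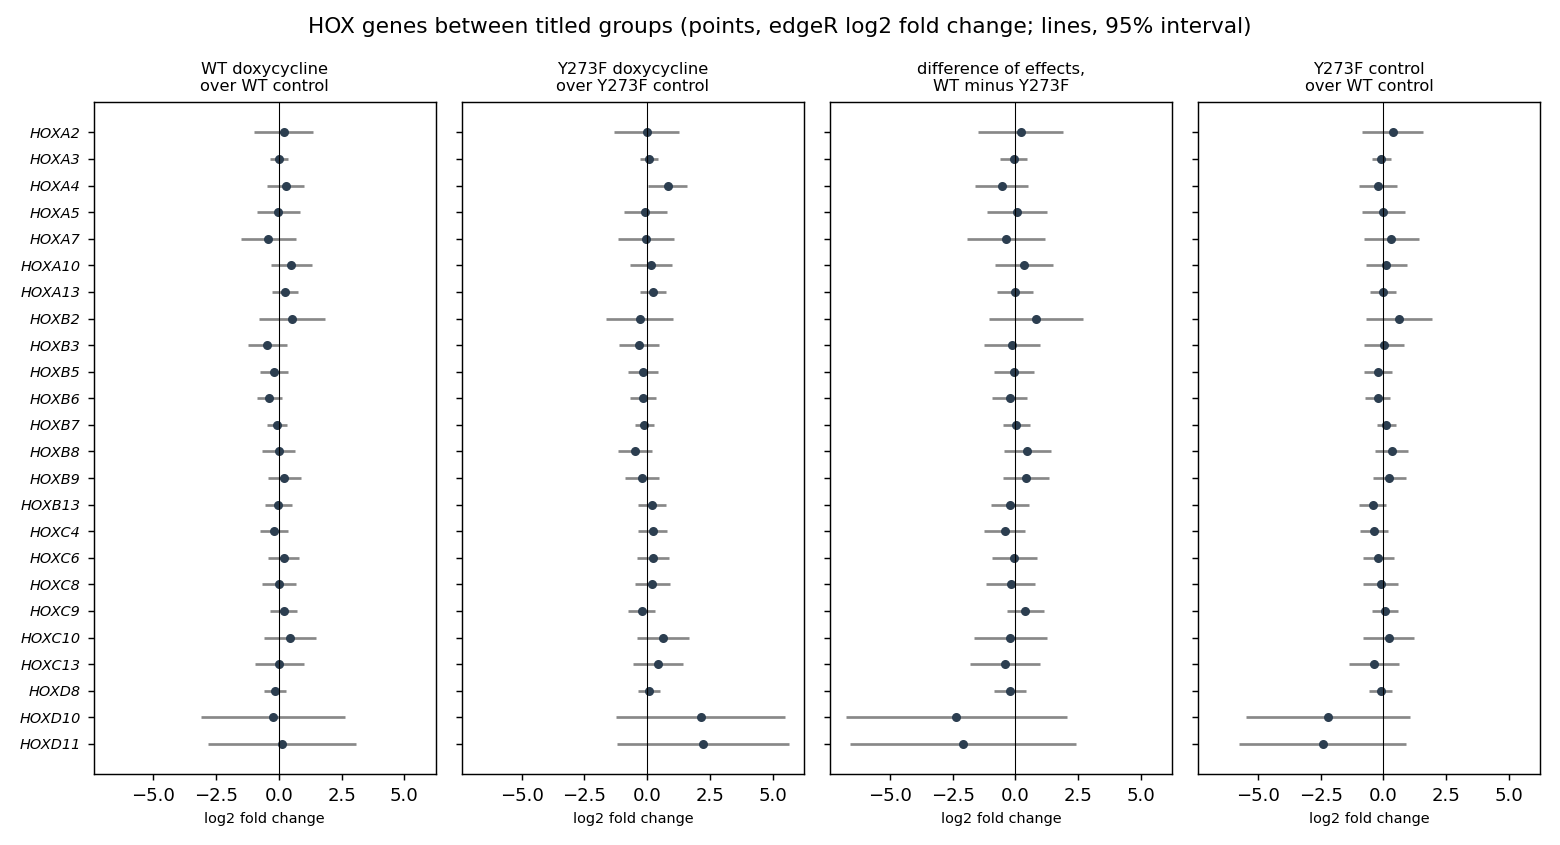
Log2 fold change of the HOX genes described in the text in the 4 comparisons of titled groups; points are edgeR estimates and lines 95% intervals. No gene passed an adjusted p under 0.05, and HOXD10 and HOXD11 have the widest intervals.

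Genes that work with or upstream of HOX genes showed no called change either. Of the PBX, MEIS and related cofactors 9 of 11 were tested, of the noncoding RNAs of the HOX clusters 7 of 21, of the Polycomb and Trithorax genes 30 of 30 and of the retinoic acid and CDX genes 14 of 22, and 0 passed in any comparison. Among abundant members, the cofactor PBX3 had a mean of 37.4 CPM, HOXA-AS2 and HOXB-AS1 had 15.6 and 7.47 CPM, the Polycomb genes CBX6 and SUZ12 had 225.2 and 150.3 CPM, and the retinoid enzymes ALDH1A1 and DHRS3 had 6281 and 137.4 CPM. HOTAIR, a noncoding RNA of the HOXC cluster, had at most 0.582 CPM.

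Several of these genes differed between libraries 2, 6 and 10 and the other 9. Of the cofactors, PBX3 and MEIS2 lay below, as did 15.3% of all genes, and PKNOX1 lay above (1 of 9, against 18.6%). PBX3 had 29.8 to 32.9 CPM in libraries 2, 6 and 10, against 35.1 to 41.1 CPM in the others. MEIS2 had 8.83 to 18.3 CPM in libraries 2, 6 and 10, against 23.9 to 38.8 CPM in the others. Of the Polycomb and Trithorax genes, EZH2, SUZ12, CBX2 and CBX8 lay below (4 of 30, against 15.3% of all genes), a share near that of all genes. EZH2, the enzyme that methylates histone H3 in Polycomb-silenced regions, had 22.3 to 27.0 CPM in libraries 2, 6 and 10, against 32.0 to 50.1 CPM in the others. Of the retinoic acid and CDX list, RARB, ALDH1A3 and GDF11 lay above (3 of 14, against 18.6% of all genes) and RXRB below (1 of 14, against 15.3%), shares near or under those of all genes. GDF11, a ligand that sets the trunk-to-tail change of Hox codes in the mouse, had 47.5 to 68.2 CPM in libraries 2, 6 and 10, against 18.8 to 24.2 CPM in the others. Of the noncoding RNAs, HOXB-AS1 alone of 7 lay below (against 15.3% of all genes) and none above. These genes other than the most abundant were named after their values were seen.

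The level of several HOX genes depended on counting by strand. Counted without strand, HOXA7 kept 1.47% of its transcript-strand reads, HOXA4 5.99%, HOXD8 13.5% and HOXA10 54.4%, and HOXD1 kept none of 28. Antisense transcripts overlap exons of HOXA4, HOXA7, HOXA10 and HOXD1 in GENCODE 29, and none overlaps exons of HOXD8 or HOXA2. Without strand the HOXD share of HOX counts was 2.02%, against 5.53% with strand. Reads on the strand opposite to the gene made up 45.2% of both strands at HOXB3, 41.2% at HOXA2 and 40.3% at HOXA4. These were the highest shares among genes with at least 30 such reads.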

How the data were processed

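RNA of 12 A549 cultures was made into QuantSeq FWD V2 libraries, per the labels' protocols, and aligned with STAR to GRCh38.p14, per the submitters' processing notes. The notes name no STAR version or annotation release and do not mention molecular identifiers. The authors deposited a merged count table and, per library, raw counts for every gene in 3 columns (both strands together, the transcript's strand, the other strand). For all 39 HOX genes the merged counts equal the transcript-strand counts. Reads assigned to no gene, 35.5% to 43.2% of a library, were left out of totals and tests, and CPM was computed from library totals. Intervals and floors cover counting error only.

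Sample titles gave the groups. Low genes were removed with filterByExpr (minimum count 10), scaled with TMM and tested with edgeR 4.0.16 (R 4.3.3) in a single model with 1 mean per titled group, with Benjamini-Hochberg adjustment over 13838 genes and a threshold of 0.05. The series text describes populations cultured and lysed in parallel. The p-values measure the spread between libraries with the same title, which includes the gap between libraries 2, 6 and 10 and the rest. The test was tried on simulated counts. Alternatives were DESeq2 1.42.0, limma-voom (limma 3.58.1), other scalings, filters, strands and sets of libraries. HOX genes with a mean of at least 1 CPM are given in every library, the others by ranges, with the 2 next below 1 CPM named; of other lists the members past the threshold, or else the 2 with the highest mean, are named. Genes whose fold changes are given were chosen after their values were seen. A few genes that these rules would name are not reported here, but stay in sums and counts. The members and lists were chosen with earlier results of these data known. Coordinates and promoter windows are from RefSeq on GRCh38.p14, and exon overlaps from GENCODE 29.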

Additional observations from a re-analysis of the deposited data

Results flagged for a closer look

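Reads on the strand opposite to HOXB2 averaged 0.811 CPM in the Y273F doxycycline libraries and lay above the Y273F controls in every library. The values were 0.710, 0.970 and 0.751 CPM in Y273F doxycycline libraries and 0.125, 0.328 and 0.358 CPM in Y273F control libraries. They rest on 2, 5 and 7 counts with doxycycline and 1, 1 and 8 counts in the controls. In the WT line the values overlapped, with 0.136, 0.623 and 0.138 CPM with doxycycline and 0.565, 0 and 0.757 CPM in controls. The difference between the lines was not tested for these reads. Exons of HOXB-AS1 overlap those of HOXB2 on that strand, so these reads may also count for HOXB-AS1, which was tested. For HOXB-AS1 the log2 fold change with doxycycline in the Y273F line was -0.08 (SE 0.52, edgeR adjusted p = 0.998).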

How the results depend on the processing

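No HOX gene was called in any comparison under any alternative run. Leaving out 1 library in turn gave 0 to 1 called genes, none of them a HOX gene, for doxycycline in the Y273F line, for the difference of the effects and for Y273F control over WT control, and 0 for doxycycline in the WT line. Deviations of same-numbered libraries from their group means had correlations of -0.636 to 0.24. Libraries 2, 6 and 10 have different replicate numbers and weigh on these values, which therefore cannot show whether the numbers pair cultures. With the replicate block edgeR called 0 genes in each comparison. At an unadjusted p under 0.05 it gave 81, 116, 85 and 295 genes for WT doxycycline, Y273F doxycycline, the difference and the controls. The HOXD share of HOX counts was 2.02% without strand, against 5.53%.

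None of the log2 fold changes that changed sign passed the threshold. In the WT line with doxycycline, HOXA3 gave -0.012 with upper-quartile factors, -0.010 with limma-voom, -0.002 without strand and -0.070 without libraries 2, 6 and 10, and HOXD11 gave -0.14 with the replicate block. HOXA7 gave 0.094 with limma-voom and 0.26 without libraries 2, 6 and 10 in the Y273F line, and -0.089 without those libraries for Y273F control over WT control. Leaving out 1 library in turn gave these ranges. For doxycycline in the WT line they were -0.10 to 0.15 for HOXA3, -0.29 to 0.049 for HOXB7, -0.035 to 0.43 for HOXC9, -2.23 to 1.41 for HOXD10 and -1.88 to 2.46 for HOXD11. In the Y273F line they were -0.055 to 0.17 for HOXA3, -0.37 to 0.25 for HOXA7, -0.27 to 0.017 for HOXB6 and -0.36 to 2.73 for HOXD10. For the difference they were -0.17 to 0.078 for HOXA3, -0.18 to 0.15 for HOXB7, -4.36 to 0.13 for HOXD10 and -4.11 to 0.27 for HOXD11. For Y273F control over WT control they were -0.18 to 0.044 for HOXA3, -0.070 to 0.62 for HOXA7 and -0.16 to 0.30 for HOXC9. The cause was not tested. Low counts limit HOXD9 to HOXD11 and the genes below 1 CPM.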
